A study of Mus musculus with 6 samples.

Results

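Glutathione S-transferases of the retinal pigment epithelium (RPE), the cell layer behind the photoreceptors, were followed through 10 genes out of 18193 genes measured. These were Gsta3 and Gsta4 of the alpha class, Gstm1, Gstm2 and Gstm5 of the mu class, Gstp1 of the pi class, Gstt1 of the theta class, Gsto1 of the omega class, and the membrane-bound Mgst1 and Mgst3. A gene was taken where the array's annotation gave a probe set its symbol and no other. The 10 genes had 17 such probe sets, and for each gene the probe set with the highest mean over all arrays was used and the others were read as a check. All mice were BALB/c, an albino strain, and all were kept in the dark for 1 week. RPE of the dark-adapted group gave 3 arrays. The light-damaged group, also 3 arrays, had in addition 1.5 h under white fluorescent light of 6000 lux and was sampled 24 h afterwards. The labels give no age, sex or genetic modification, and do not say whether an array holds RNA of 1 animal or of a pool, so the p-values measure the spread between these samples only, which may be technical.

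Glutathione transferases join the thiol of glutathione to reactive compounds, among them the aldehydes formed when membrane lipids are oxidised. The soluble classes differ in their preferred substrates, and the microsomal enzymes sit in membranes and also reduce lipid hydroperoxides. Several of the genes are known targets of NRF2, a transcription factor that binds antioxidant response elements and is activated by oxidative and electrophilic stress. The comparison asks how RPE transcripts change after damaging light.

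Values are log2 RMA values per probe set. Differences are light-damaged minus dark-adapted on that scale, from limma with the replicate number as a block. The ± after a difference is limma's moderated standard error, which draws on the spread of all genes and not of the 3 pairs alone. A gene counts as called at a Benjamini-Hochberg adjusted p under 0.05 over all 18193 genes. Array medians lay between 7.43 and 7.48. Both replicate 1 arrays stood apart from the other 4, where the Gapdh control read higher at its 3′ than at its 5′ end by 2.45 and 2.48, against 1.54 to 1.80. RPE markers were present in every array (Rpe65, the visual cycle isomerase, at 13.10 to 14.59), and so were those of photoreceptors, with mean levels of 11.21 to 12.48 over 15 markers. Fewer cells of a type and less RNA per cell cannot be told apart in such bulk samples.

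Gsta3 was the 1 gene of the 10 that was called, and it rose 2.09-fold in light-damaged RPE. The other 9 were not called in either direction, which does not show that they were unchanged. Gsta3 is an alpha class transferase known in the mouse for detoxifying the epoxide of aflatoxin. Its log2 values were 8.30, 8.57 and 9.10 in dark-adapted replicates 1, 2 and 3 and 8.89, 10.14 and 10.12 in the light-damaged ones. Each light-damaged array lay above the dark-adapted array of its number, but the groups overlapped, since light-damaged replicate 1 was below dark-adapted replicate 3. The differences within pairs 1, 2 and 3 were 0.59, 1.58 and 1.02, and the group means were 8.65 ± 0.41 and 9.72 ± 0.72 (SD, n = 3 each). The fitted difference was 1.06 ± 0.18 (95% interval 0.63 to 1.49, limma adjusted p = 0.0271). Over all genes 3.07% were called higher and 1.92% lower, and 1 rise among 10 genes is a single gene that says nothing of the set. The call rests on the block: without it Gsta3 had the same difference with an adjusted p of 0.745, and only 9 genes, or 0.0495%, were called in all. None of the 10 genes had groups that did not overlap, against 10.3% of all genes.

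A second probe set of Gsta3 gave a difference of 0.94 ± 0.09 (limma adjusted p = 0.00555 over 34945 probe sets, of which 2.38% were called higher). Its values were 8.91, 8.24 and 8.41 in the dark-adapted and 9.94, 9.24 and 9.20 in the light-damaged replicates 1 to 3. Here the groups did not overlap, and the pairs differed by 1.04, 0.99 and 0.79. The probe sets disagreed about replicate 1, which was the lowest of its group in the first and the highest in the second, and their values over the 6 arrays correlated at r = 0.30. Both read the same RNA samples, so they are not independent evidence on the treatment.

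**Figure D1:**
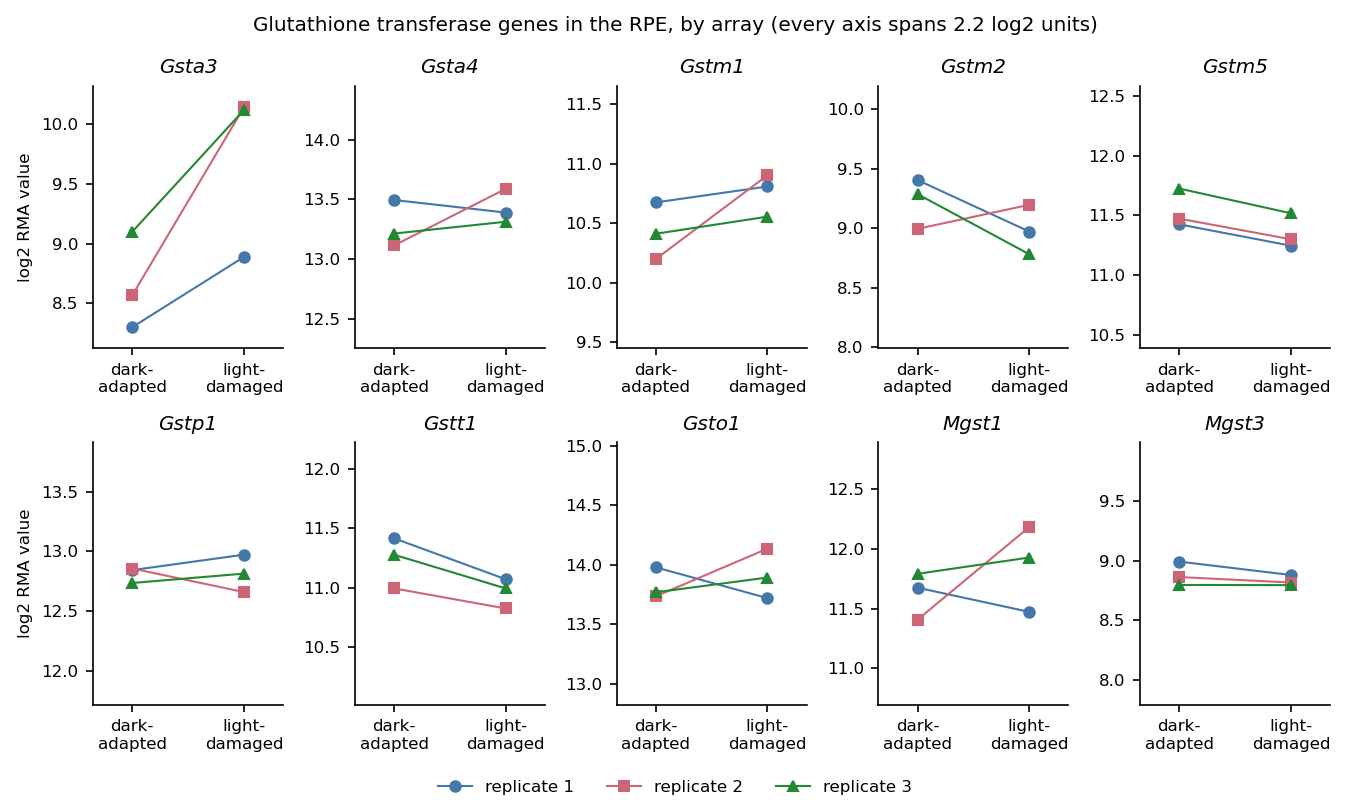
Log2 RMA values of the 10 glutathione transferase genes in each array, with a line joining the dark-adapted and the light-damaged array of the same replicate number. Gsta3 was higher in the light-damaged array of every pair, and for Gsta4, Gstm1, Gsto1 and Mgst1 the light-damaged replicate 2 array holds the highest of the 6 values.

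The window around the start of Gsta3 is shown because this is the gene that was called and because it holds a match to the core of the antioxidant response element. The core searched was TGACNNNGC on both strands, in windows from 250 bases before to 50 after each gene start, taken from RefSeq on build GRCm38.p6. It occurred in 12.4% of 32851 windows. Of the 10 genes, 9 had a window, 11 windows in all, and 3 genes held a match. In Gsta3 the match begins 121 bases before the start, on the gene's own strand, and stands in capitals in the sequence of chr1:21240335-21240634, plus strand.

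Gsta3: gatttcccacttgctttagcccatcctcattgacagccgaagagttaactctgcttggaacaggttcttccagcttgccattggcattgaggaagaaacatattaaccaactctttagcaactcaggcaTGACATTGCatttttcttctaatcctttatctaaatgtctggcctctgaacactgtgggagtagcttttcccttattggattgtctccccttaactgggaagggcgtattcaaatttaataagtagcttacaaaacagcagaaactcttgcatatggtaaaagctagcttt

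The other matches lay in windows of Gstm5 and Mgst1, 42 and 56 bases before the start. A further window of Mgst1, chr6:138141337-138141636, held no match. The stretches of 41 bases around all 3 matches are set side by side with the core in capitals. They come from chr1:21240448-21240488 for Gsta3, chr3:107895796-107895836 for Gstm5 and chr6:138140455-138140495 for Mgst1, all on the plus strand, and the core of Mgst1 reads on the opposite strand.
Gsta3: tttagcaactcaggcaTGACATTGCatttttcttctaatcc
Gstm5: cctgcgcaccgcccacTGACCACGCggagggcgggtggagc
Mgst1: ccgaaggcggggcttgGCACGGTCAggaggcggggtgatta
None of these 3 matches overlapped the AP-1 sequence TGACTCA. The differences of the genes were 1.06, -0.19 and 0.24, so a match occurred beside a gene that rose and beside 2 genes that were not called.

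Lens transcripts were unequal between the arrays and are given beside Gsta3 for that reason. The mean of 10 lens markers was 7.88, 8.30 and 6.94 in dark-adapted and 8.16, 10.32 and 7.58 in light-damaged replicates 1, 2 and 3. It was highest in light-damaged replicate 2, where the lens crystallin gene Cryaa reached 13.48 against 7.49 to 10.66 in the other 5 arrays. Of the 10 markers, 1 was called higher and none lower, with a median difference of 1.07. That count ran from 0 to 5 over the alternatives, with 5 without replicate 1, 2 without replicate 2 and 0 without replicate 3. No marker has a true zero on this scale, and Cryga, the lowest, stayed between 4.67 and 4.91. Within pairs 1, 2 and 3 the lens mean differed by 0.28, 2.02 and 0.63. The first probe set of Gsta3 had the same order, and the second, at 1.04, 0.99 and 0.79, did not. Without replicate 2 in both groups the difference of Gsta3 was 0.81 ± 0.15 (limma adjusted p = 0.0219). Macrophage and microglia markers were called higher in 14 of 16 cases, their mean rising from a range of 9.49 to 9.83 to one of 10.41 to 10.75. Photoreceptor markers were called lower in 8 of 15 cases, with a mean of 11.87 to 12.48 in dark-adapted and 11.21 to 11.96 in light-damaged arrays. RPE markers were called lower in 2 of 14 cases and had a mean of 12.54 to 12.92 against 11.98 to 12.48. All 14 had differences below 0, and 11 had an unadjusted limma p under 0.05, beside 19.0% of all genes. The shares called over all genes were 3.07% higher and 1.92% lower. Without the block 0 markers of each of these 4 lists were called. What part these cells have in the result for Gsta3 was not tested.

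**Figure D2:**
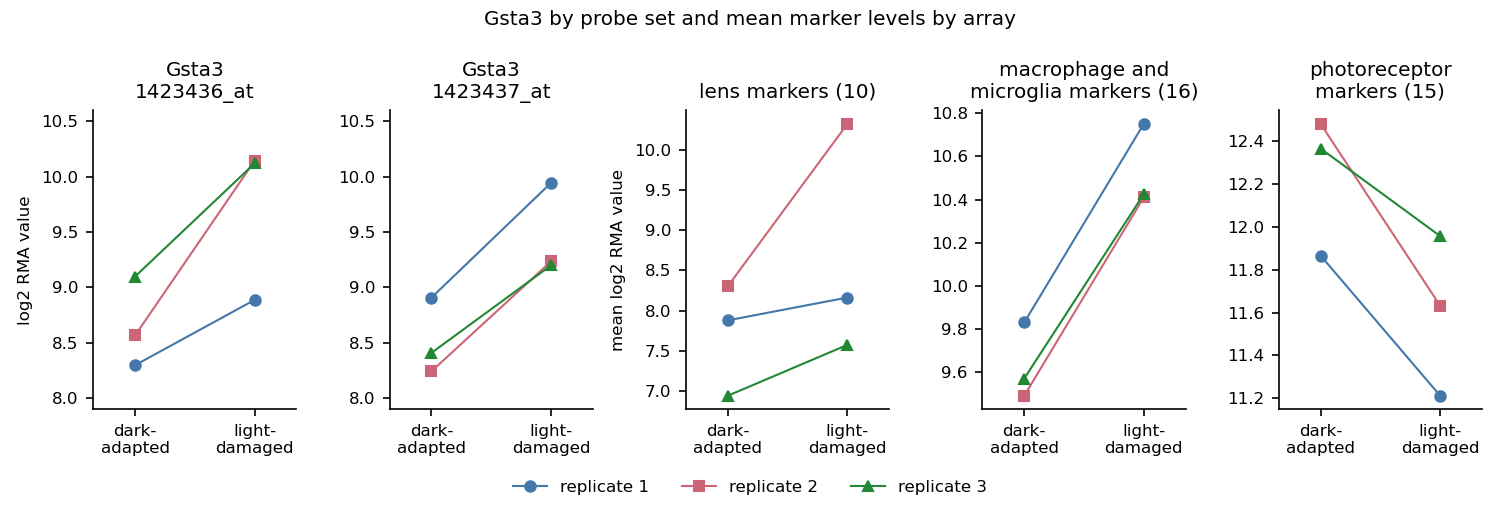
The panels from left to right plot the log2 RMA values of both Gsta3 probe sets and the mean log2 RMA value of the lens, macrophage and microglia, and photoreceptor markers, by array, with lines joining arrays of the same replicate number. Gsta3 was higher in the light-damaged array of every pair in both probe sets, while the lens mean was 10.32 in light-damaged replicate 2 and at most 8.30 elsewhere.

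Gsta4, the other alpha class gene, encodes the transferase most active on 4-hydroxynonenal, an aldehyde from oxidised lipids, and it was not called. Its values were 13.50, 13.11 and 13.21 in dark-adapted and 13.39, 13.59 and 13.31 in light-damaged replicates 1 to 3. The difference was 0.16 ± 0.13, with an interval of -0.15 to 0.46. The groups overlapped, and pair 1 ran against pairs 2 and 3. Values this high lie near the top of the table, which ends at 14.82, where array signals can flatten and differences be understated. Without replicate 2 the difference was -0.0031, so its sign rested on pair 2.

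The mu class genes differed in sign, and none was called. Gstm1, a major soluble transferase of mouse tissues, had values of 10.67, 10.20 and 10.41 in dark-adapted and 10.81, 10.90 and 10.56 in light-damaged arrays. It was higher in 3 of 3 pairs, with overlapping groups and a difference of 0.33 ± 0.13 (adjusted p = 0.254). Its interval of 0.006 to 0.65 stood just above 0 before adjustment, and without replicate 2 the difference was 0.14. Gstm1 had 4 probe sets, whose differences of 0.33, 0.26, 0.25 and 0.09 were all above 0. The last of these gave -0.0035, 0.41 and -0.13 in pairs 1, 2 and 3, so it was lower in 2 of 3 pairs. The others were higher in 3 of 3 pairs. The probe set used and 1 other are of the x_at kind, which can bind related transcripts. The mu genes are near copies of one another, so signal of one may be read in another.

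Gstm2 had values of 9.40, 8.99 and 9.29 in dark-adapted and 8.97, 9.20 and 8.78 in light-damaged arrays. Pairs 1 and 3 were lower by similar amounts and pair 2 was higher, which gave -0.25 ± 0.15 (adjusted p = 0.462). Without replicate 2 it was -0.47 ± 0.13 (adjusted p = 0.103), still not called. Gstm5, known as a mu class transferase of brain and testis, was steadier. Its pairs gave -0.18, -0.17 and -0.21 and the fit -0.19 ± 0.08 (adjusted p = 0.306, interval -0.39 to 0.02). Its values ran from 11.42 to 11.72 in dark-adapted and from 11.25 to 11.52 in light-damaged arrays, so the replicates of a group differed by more than the groups did.

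Gstp1, the pi class gene and a common detoxifying transferase of epithelia, showed no difference beyond its error. It ranged from 12.73 to 12.86 in dark-adapted and from 12.66 to 12.97 in light-damaged arrays, and the difference was 0.0034 ± 0.10. The interval of -0.24 to 0.25 leaves room for changes of that size. Gstt1, of the theta class, which acts on small halogenated compounds, was lower in 3 of 3 pairs. Its values were 11.41, 10.99 and 11.28 in dark-adapted and 11.07, 10.83 and 10.99 in light-damaged arrays. The groups overlapped in dark-adapted replicate 2, and the difference was -0.27 ± 0.09 (interval -0.48 to -0.05, adjusted p = 0.170).

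Gsto1, of the omega class, reduces dehydroascorbate and methylated arsenic and was not called. It lay at 13.98, 13.74 and 13.77 in dark-adapted and 13.72, 14.14 and 13.89 in light-damaged arrays. The difference was 0.09 ± 0.14 (interval -0.24 to 0.41), and its second probe set gave 0.05. Pair 1 was lower and the other 2 pairs higher, so the pairs did not share a direction.

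The microsomal genes were not called. Mgst1, a transferase and peroxidase of the outer mitochondrial membrane and endoplasmic reticulum, had values of 11.68, 11.41 and 11.79 in dark-adapted and 11.47, 12.18 and 11.93 in light-damaged arrays. Its difference of 0.24 ± 0.18 came mostly from pair 2, at 0.78, against -0.20 and 0.14 in pairs 1 and 3. Without replicate 2 it was -0.03 ± 0.14. Its second probe set, dimmer at 6.06 to 6.32, gave -0.11. Mgst3, which also has glutathione peroxidase activity towards lipids, ranged from 8.80 to 8.99 and from 8.80 to 8.88 in the groups. Its pairs gave -0.11, -0.05 and -0.0015. The fitted difference of Mgst3 was -0.05 ± 0.09, and its second probe set gave 0.01 and was higher in 2 of 3 pairs.

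**Figure D3:**
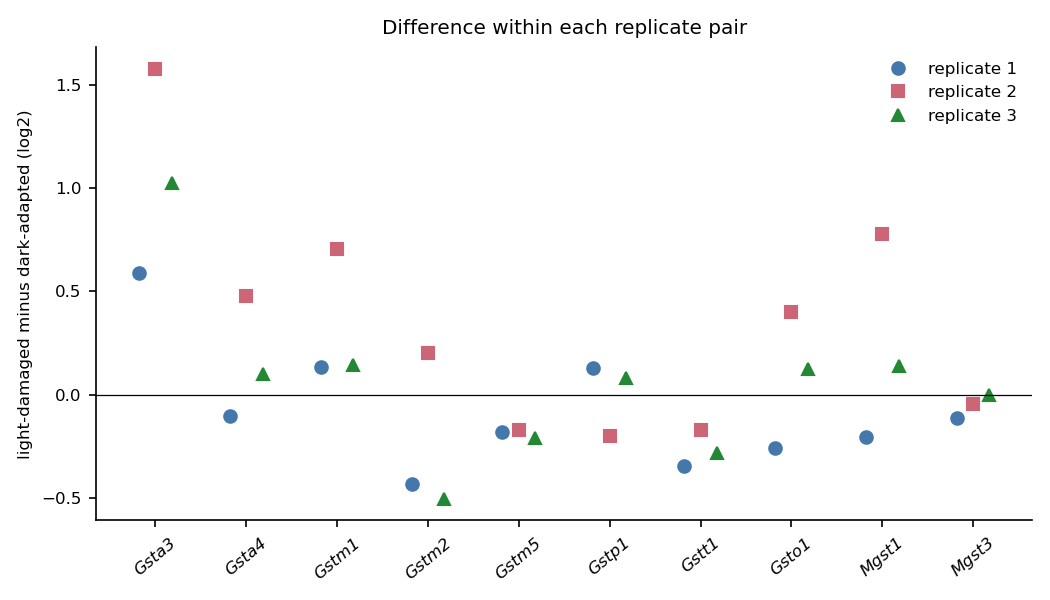
The light-damaged minus dark-adapted difference (log2) of each glutathione transferase gene within replicate pairs 1, 2 and 3. Gsta3 and Gstm1 were above 0 and Gstm5, Gstt1 and Mgst3 below 0 in all 3 pairs, with Mgst3 at only -0.0015 in pair 3. Pair 2 gave the highest difference for each gene except Gstp1 and Mgst3.

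Across the 10 genes the median difference was 0.05, against -9.4e-05 over all genes. By pair it was -0.15, 0.30 and 0.09, whereas over all genes the pair medians lay between -0.02 and 0.02. In pairs 1, 2 and 3 the genes above 0 were 3, 6 and 6 of 10, beside 49.9%, 45.2% and 53.6% of all genes. In 5 of 10 genes light-damaged replicate 2 held the highest value of the 6 arrays, which it did in 7.54% of all genes. This is the array with the high lens markers, and what part those transcripts have in the shift was not tested. Signs were the same in all 3 pairs for 5 of the 10, with 2 higher and 3 lower, a share of 20.0% and 30.0% against 19.9% and 20.7% of all genes. Among the 3 lower, Mgst3 stood at only -0.0015 in pair 3. At an unadjusted p under 0.05 there were 3 of the 10 genes, Gsta3, Gstm1 and Gstt1, and 19.0% of all genes. The intervals of the 9 genes other than Gsta3 reached at most 0.67 from 0, and the interval of Gsta3 began at 0.63. The fitted 1.06 of Gsta3 lay in none of these 9 intervals. They are moderated intervals, and differences of bright genes may be understated, so a change of that size is not excluded.

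The rest of the family was measured through 15 of 17 listed genes, and limma called none of them. Unadjusted p-values were under 0.05 for 5, with 4 lower and 1 higher, or 33.3% beside 19.0% of all genes. Gsta2, an alpha class gene with close copies, had a difference of -0.39 ± 0.10 (adjusted p = 0.0914). Its values ran from 10.72 to 11.28 in dark-adapted and from 10.47 to 10.72 in light-damaged arrays, so the groups met at 10.72, and it was lower in 3 of 3 pairs where Gsta3 was higher in all 3. Gstt2 and Gstt3 of the theta class, like Gstt1, were lower in every pair, by -0.33 ± 0.10 and -0.35 ± 0.12 in the fit. The mitochondrial and peroxisomal kappa class gene Gstk1 gave -0.32 ± 0.09. Hpgds, which makes prostaglandin D2 in mast cells, macrophages and other immune cells, gave 0.29 ± 0.10. Groups did not overlap for Gstk1, Gstt2, Hpgds and Gstm6 among the 15, beside 10.3% of all genes, and nothing is read from so few genes. The remaining 10 had intervals that held 0. Their differences were 0.12 for Gstm6, 0.10 for Ptges, 0.08 for Gstm3, 0.07 for Mgst2, 0.02 for Gstz1 and 0.00084 for Gstm7. Below 0 were Gstm4 at -0.02, Gstcd at -0.02, Gstt4 at -0.10 and Gsto2 at -0.13.

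**Figure D4:**
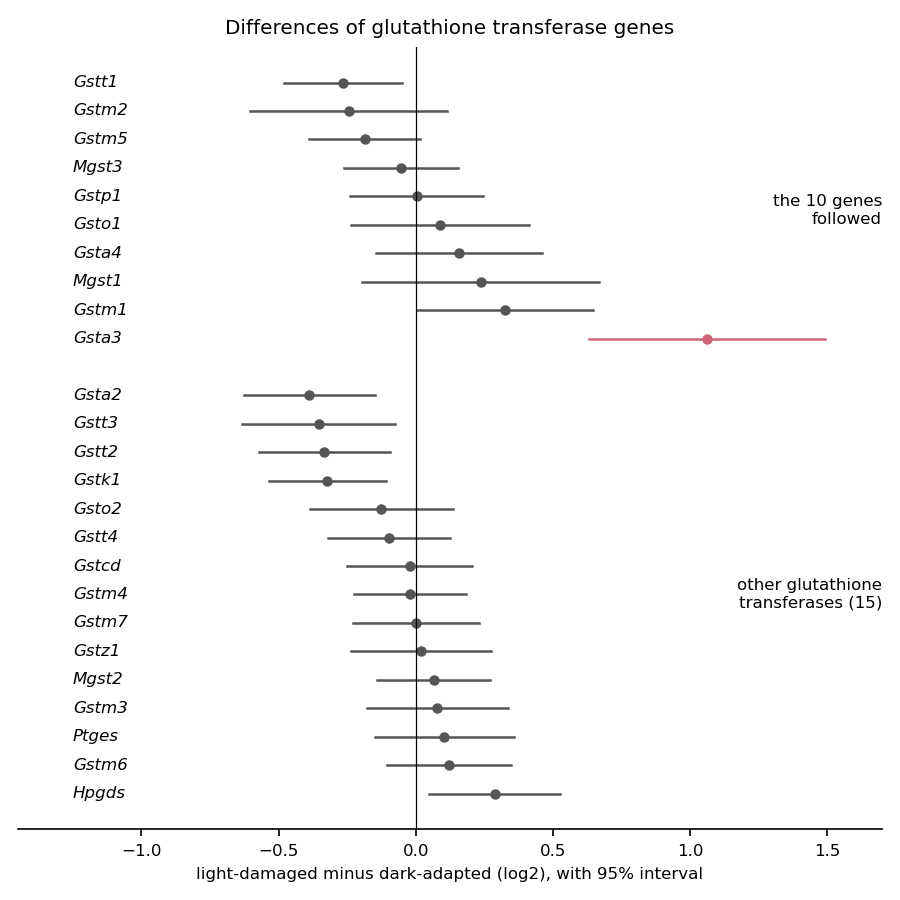
Light-damaged minus dark-adapted differences (log2, points) with 95% intervals (lines) for the 10 genes followed and for 15 other glutathione transferases, called genes in red. Gsta3 at 1.06 is the called gene and has the highest value plotted, and the others range from -0.39 to 0.33.

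Genes that make, recycle and use glutathione were read together with NRF2 regulators and other NRF2 targets. These 4 lists, called the pathway lists, held 55 measured genes, of which 3 rose and 3 fell. That is 5.45% in each direction, beside 3.07% higher and 1.92% lower over all genes. With 3 genes each way nothing is read from it. The list of NRF2 regulators and other targets held 19 of the 55 genes, 2 of the 3 rises and 2 of the 3 falls. The median difference of the 55 genes was 0.06. Of 10 genes of synthesis and reduction, 1 fell and none rose. Cth, which encodes cystathionine gamma-lyase, the enzyme that makes cysteine for glutathione from cystathionine, had values of 8.58, 9.16 and 9.69 in dark-adapted and 7.46, 8.39 and 8.66 in light-damaged arrays. It was lower in every pair, with overlapping groups, and fell by 0.98 on the log2 scale (-0.98 ± 0.10, adjusted p = 0.0065). Gss, glutathione synthetase, gave 0.39 ± 0.13 (adjusted p = 0.153), the cystine importer gene Slc7a11 0.25 ± 0.09 (adjusted p = 0.212) and the cysteine and glutamate carrier gene Slc1a1 -0.31 ± 0.09 (adjusted p = 0.145). Groups did not overlap for Gss and Slc7a11 among the 10 genes of this list, beside 10.3% of all genes. The rate-limiting ligase genes Gclc and Gclm, and the reductase gene Gsr, had differences of 0.11, -0.14 and 0.05 and were not called.

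Of 14 genes of glutathione breakdown and conjugate export, 1 rose. Lap3, an aminopeptidase able to split the cysteinyl-glycine left by glutathione breakdown, rose 1.43-fold (0.51 ± 0.09, adjusted p = 0.0278). Its values were 7.77, 8.38 and 8.80 in dark-adapted and 8.31, 8.95 and 9.24 in light-damaged arrays, higher in 3 of 3 pairs. The export pump gene Abcc4 gave -0.68 ± 0.14 and missed the threshold (adjusted p = 0.0506), although its groups did not overlap. Chac2, a glutathione-degrading cyclotransferase gene, gave -0.39 ± 0.11, and the pump gene Abcc3 0.30 ± 0.10. Abcc1, a main exporter of glutathione conjugates, gave 0.03. No glutathione peroxidase or glutaredoxin gene passed among 12 in limma, and 1 had an unadjusted p under 0.05, beside 19.0% of all genes. That gene was Gpx1, the cytosolic peroxidase, at 0.45 ± 0.10 (adjusted p = 0.0554), higher in 3 of 3 pairs. In this list 1 gene was called without replicate 1, after quantile normalization and with the mean of all probe sets. The secreted peroxidase gene Gpx3 gave 0.56 ± 0.28, with 1.44 in pair 2 and -0.20 in pair 1. Hagh and Glo1, which clear methylglyoxal with glutathione, gave -0.17 and 0.19.

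Of 19 measured NRF2 regulators and other NRF2 targets, 2 rose and 2 fell, or 10.5% in each direction. Over all genes it was 3.07% higher and 1.92% lower, and with 2 genes each way nothing is read from the shares. Hmox1, heme oxygenase, stood at 7.99, 7.67 and 7.39 in dark-adapted and at 8.57, 8.92 and 8.55 in light-damaged arrays, without overlap (1.00 ± 0.14, adjusted p = 0.0163). Pgd, an NADPH-producing enzyme of the pentose phosphate pathway, rose 1.43-fold (adjusted p = 0.0269), by an x_at probe set, and its other 3 probe sets gave 0.41 to 0.51. Nqo1, a quinone reductase widely used as a readout of NRF2, lay at 8.82, 8.67 and 9.07 and then at 8.01, 7.80 and 8.13, again without overlap, and fell by 0.87 (-0.87 ± 0.09, adjusted p = 0.0057). Me1, another NADPH source, fell by 0.61 (adjusted p = 0.0395), with -0.43 and an adjusted p of 0.0510 over all probe sets in its second probe set. Nfe2l2, which encodes NRF2, and Keap1, its inhibitor, had differences of 0.11 and 0.01 and were not called. Known targets of NRF2 thus went in both directions, with Gsta3 and Hmox1 higher and Nqo1 lower in the same 3 pairs. What part the differences of the cell markers given above have in the 6 pathway calls was not tested. None of these 6 pathway calls was made without the replicate block, where the smallest adjusted p among the 55 genes was 0.176.

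**Figure D5:**
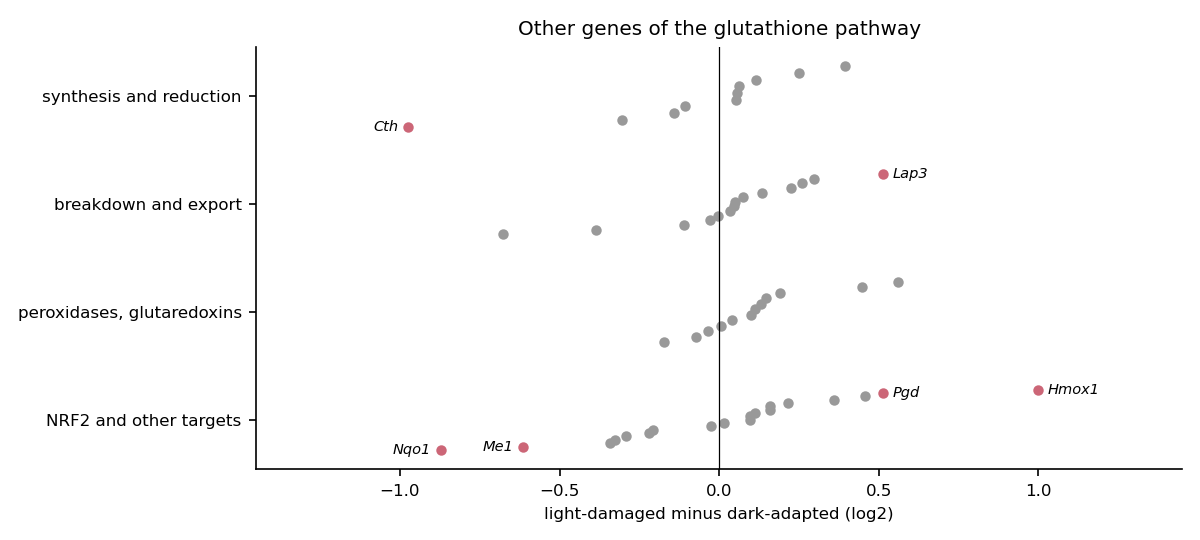
Light-damaged minus dark-adapted differences (log2) of the genes in the 4 pathway lists, which include NRF2 regulators and other targets. Each gene has 1 point, with called genes in red and named. Cth, Nqo1 and Me1 lie below 0 and Lap3, Pgd and Hmox1 above it.

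The 5 genes most like Gsta3 over the 6 arrays, among 9095 genes above the median mean level, were Vwa5a, Nras, Atf5, Anp32b and Ctsz, with Pearson's r of 0.99 each. These values describe 6 arrays that share the replicate numbers and the light exposure, and 2.52% of the genes compared had an r above 0.9. Vwa5a, at 9.36, 9.65 and 9.94 in dark-adapted and 9.72, 10.52 and 10.48 in light-damaged arrays, had the order of Gsta3 within each group. Their differences, 0.59 for Vwa5a, 0.48 for Ctsz, 0.47 for Atf5, 0.36 for Anp32b and 0.30 for Nras, follow from the choice by likeness and are given with no test. The likeness was to the probe set of Gsta3 used above and not to the second one, which ordered the replicates otherwise.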

How the data were processed

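Total RNA of RPE was labelled with biotin and hybridised to Affymetrix mouse arrays, per the labels' protocols. The deposited values are log2 values per probe set, made by the authors with RMA (background correction, normalization between arrays and probe summary), per the submitters' processing notes. The RMA version is not given in the sources used here. RMA compresses differences near background and near saturation, and the values carry no detection calls.

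Of 45101 probe sets, 34945 had exactly 1 gene symbol in the platform annotation, which left 18193 genes, each represented by the probe set with the highest mean over the 6 arrays. The number of arrays limits the precision. The contrast was fitted by limma's lmFit and eBayes (version 3.58.1, R 4.3.3), two-sided and Benjamini-Hochberg adjusted over all genes, with the replicate number as a block and 2 residual degrees of freedom. Standard errors and 95% intervals are moderated and use limma's total degrees of freedom, which exceed these 2. They can therefore be narrower than the pairs of a gene alone would give. The labels number replicates 1 to 3 in both groups without saying what a number marks. Once group means were subtracted, the correlation across genes between the 2 arrays of a number was 0.89, 0.62 and 0.86, each above 0.1. With both replicate 1 arrays apart from the others, replicates 2 and 3 deviate together whatever their numbers mark. These values therefore cannot settle the pairing of replicates 2 and 3. The numbers were used as pairs because the rule set for the 10 genes asked for it. This is less sure for replicates 2 and 3, whose difference correlated at 0.33 between groups. The fit was tested on data simulated from the same model with the replicate block. Such data take the block as given, so they cannot test the pairing.

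The genes, the lists and the block were chosen with earlier results of these data known. Named genes were the members and all their probe sets, the other transferases, the called genes of each pathway list or the 4 with the smallest p, and the 5 genes most like Gsta3 by Pearson's r. Other genes were named after their values were seen. Of the marker lists, endothelium had 1 of 12 called higher, fibroblasts and pericytes 3 of 11, and Müller glia 2 of 11 higher and 1 lower. Red blood cells had 0 of 5 with limma, with 0 at an unadjusted p under 0.05. The shares called over all genes were 3.07% higher and 1.92% lower. Alternatives were no block, each replicate pair left out, quantile normalization, median centring, a filter on the lowest 25% of genes, other probe set choices, a pseudocount of 16, and trend or robust moderation.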

Additional observations from a re-analysis of the deposited data

How the results depend on the processing

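Gsta3 kept its direction under all 12 alternatives and its call under 10, with differences from 0.81 to 1.30. With no replicate block its difference of 1.06 had an adjusted p of 0.745, the genes called over the whole table were 9 in place of 908, all 9 among the 908, and the members called were 0 in place of 1. Leaving out 1 replicate pair at a time, with 1 residual degree of freedom, gave 228 to 1245 genes called, 0 to 1 members called, and 0.81 to 1.30 for Gsta3, which lost its call without replicate 3 (1.08, adjusted p = 0.0894). The other 9 members were called under none of the alternatives.

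Signs turned only for members and relatives that were not called. Leaving out a pair moved Gsta4 between -0.0031 and 0.29, Gstp1 between -0.0597 and 0.10, Gsto1 between -0.0676 and 0.26, Mgst1 between -0.0332 and 0.46, Gstm3 between -0.0121 and 0.19, Gstm4 between -0.0368 and 0.0069, Gstm7 between -0.0568 and 0.0789, Gstz1 between -0.0945 and 0.0945, Ptges between -0.00086 and 0.20 and Gstcd between -0.0882 and 0.0490. Median centring gave -0.0142 for Gstp1 and -0.0168 for Gstm7, quantile normalization gave -0.0078 for Gstm7, and the mean of all probe sets gave -0.0564 for Gstm7 and -0.0549 for Ptges. The cause was not tested.

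With no replicate block the pathway calls were 0 in place of 6, and 0 genes of every marker list were called. Cth and Nqo1 lost their call under that setting alone, Hmox1 also without replicate 3, Lap3 and Me1 also without replicate 2 and without replicate 3, and Pgd under these and without s_at and x_at probe sets. Other calls were gained. Leaving out 1 pair gave 0 to 2 calls in the breakdown and export list, in place of 1, and 2 with quantile normalization, the filter or the mean of all probe sets. It gave 0 to 1 for peroxidases and glutaredoxins, in place of 0, and 1 with quantile normalization or the mean of all probe sets, and 1 to 5 for NRF2, in place of 4.

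Among marker lists, leaving out 1 pair gave 0 to 5 lens calls in place of 1, 0 to 4 for RPE in place of 2, 3 to 6 for photoreceptors in place of 8, 1 to 4 for Müller glia in place of 3, 0 to 6 for fibroblasts and pericytes in place of 3, 0 to 1 for endothelium in place of 1, and 10 to 14 for macrophages and microglia in place of 14. Lens calls were 2 with the filter and 0 with median centring, a pseudocount of 16, the mean of all probe sets or robust moderation. RPE had 1 with the mean of all probe sets, and photoreceptors had 5 with quantile normalization. With 3 arrays a group, small differences are hard to call, and bright genes such as Gsta4 and Gsto1 lie where signals can flatten.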
